A study of Rattus norvegicus with 7 samples.

Results

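The microRNAs rno-miR-107 and rno-miR-103, called miR-107 and miR-103 here, are paralogs, near-identical mature miRNAs made from separate genes. They were selected on the array by name, together with every star arm and numbered copy of either, which gave 5 of the 677 rat miRNAs with probes: miR-107, miR-107*, miR-103, miR-103-1* and miR-103-2*. The tissue was liver from adult male Sprague-Dawley rats, each profiled on 1 single-colour Agilent miRNA array. In the PFOS group (4 arrays), rats ate a diet containing potassium perfluorooctanesulfonate, a fluorinated surfactant that persists in the body, at 50 mg/kg of diet. In the Control group (3 arrays), rats ate the diet without it (1 more Control animal failed the submitters' quality control). Feeding lasted 28 days in both groups. The study addressed hepatic miRNAs and thyroid hormone homeostasis under dietary PFOS.

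A mature miRNA guides the RNA-induced silencing complex to messenger RNAs that pair with its seed, bases 2 to 8, and lowers the output of those messenger RNAs. The genes of miR-107 and miR-103 lie in introns of pantothenate kinase genes, whose enzymes catalyse the committed step of coenzyme A synthesis, the cofactor on which fatty acid synthesis and oxidation depend. In mouse liver and fat, miR-103 and miR-107 are known to lower insulin sensitivity, in part through caveolin-1, a regulator of the insulin receptor, and in human cells they target DICER1, the enzyme that cuts miRNA precursors.

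The mature sequences are shown because they set what the array could tell apart. They come from RefSeq (GRCr8), run 5′ to 3′, and have the seed and the 1 base that differs between the paralogs in capitals.
rno-miR-107-3p: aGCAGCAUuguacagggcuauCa
rno-miR-103-3p: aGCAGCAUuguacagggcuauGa
Counting from the 5′ end of the 23-base miR-103, the difference is G22C, next to the last base and outside the seed. The seed GCAGCAU was carried by 2 of the 694 mature miRNAs in the RefSeq table, which were these paralogs. The difference is small enough that a probe for one paralog may also bind the other, and how much of either signal came from the other paralog was not tested.

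The precursor hairpins are shown because 2 of the 3 genes give 1 mature product. The capitals mark the mature miRNA, which spans bases 52 to 74 of each hairpin.
Mir107: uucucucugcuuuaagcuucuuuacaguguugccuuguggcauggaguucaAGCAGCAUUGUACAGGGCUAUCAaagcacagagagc
Mir103a1: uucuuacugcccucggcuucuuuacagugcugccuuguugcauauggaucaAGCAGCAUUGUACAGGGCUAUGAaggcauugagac
Mir103a2: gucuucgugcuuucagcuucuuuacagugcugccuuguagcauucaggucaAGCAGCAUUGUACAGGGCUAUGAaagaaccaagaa
In the GRCr8 annotation, Mir107 lies within the span of Pank1 on chromosome 1, Mir103a1 within Pank3 on chromosome 10 and Mir103a2 within Pank2 on chromosome 3. Mir103a1 and Mir103a2 yield the same mature miR-103, so the array could not separate these 2 genes.

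Signals were averaged over the spots of a probe, summed over the probes of a miRNA, scaled and normalised by cyclic loess, and are given in arbitrary units. Detection on an array required over 50% of the usable spots of any probe of the miRNA to exceed background clearly. Of the 677 miRNAs, 175 were detected widely enough to be tested. The PFOS arrays were brighter before any scaling. The median unscaled signal of the 123 miRNAs detected on all arrays ran from 226 to 326 on PFOS arrays and from 133 to 176 on Control arrays. The labelling spike-in, a synthetic RNA added before labelling, was 2.23-fold higher on PFOS arrays. Fewer cells expressing a miRNA and less of it per cell cannot be told apart in bulk liver RNA.

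The star arms gave no measurable signal. On all 7 arrays, 3 of the 5 members, namely miR-107*, miR-103-1* and miR-103-2*, were not well above background. Each had 20 spots per array, and the highest mean of any of their probes on any array was 2.66 before scaling, for miR-103-1*. The lowest unscaled signal of a detected paralog was 129, for miR-103 on Control replicate 2. Only miR-107 and miR-103 were therefore compared between diets, each from 2 probes and 20 spots per array.

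After normalisation every PFOS liver had more miR-107 signal than every Control liver. The normalised signal of miR-107 was 500.0, 479, 430.3 and 434 in PFOS replicates 1 to 4, and 404, 343 and 345 in Control replicates 1 to 3. The groups did not overlap, and the nearest values were those of PFOS replicate 3 and Control replicate 1. The mean was 461 ± 34.3 in PFOS livers (SD, n = 4) and 364 ± 34.5 in Control livers (SD, n = 3). The log2 fold change was 0.34 (SE 0.10), or 1.27-fold, with a 95% interval of 1.08 to 1.49-fold. In limma this had an unadjusted p of 0.0113 and an adjusted p of 0.132 over the 175 tested miRNAs, so it did not pass the threshold of 0.05. The groups overlapped under 5 of the 25 alternatives. These were 75th percentile scaling of detected miRNAs without loess, spike-in scaling, the deposited table, its remake and cyclic loess with equal weights. Alternatives that changed filters or moderation, took slide row as a block or left out an array reuse the same normalised values. Overlap could not arise under them.

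The signal of miR-103 differed by less. It was 216, 231, 226 and 201 in PFOS replicates 1 to 4, against 215, 198.5 and 208 in Control replicates 1 to 3. The groups overlapped, with PFOS replicate 4 below 2 of the 3 Control livers. Its mean was 218 ± 13.4 in PFOS livers (SD, n = 4) and 207 ± 8.28 in Control livers (SD, n = 3). The log2 fold change was 0.08 (SE 0.08), or 1.05-fold, with a 95% interval of 0.925 to 1.20-fold, and the limma adjusted p was 0.667.

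**Figure D1:**
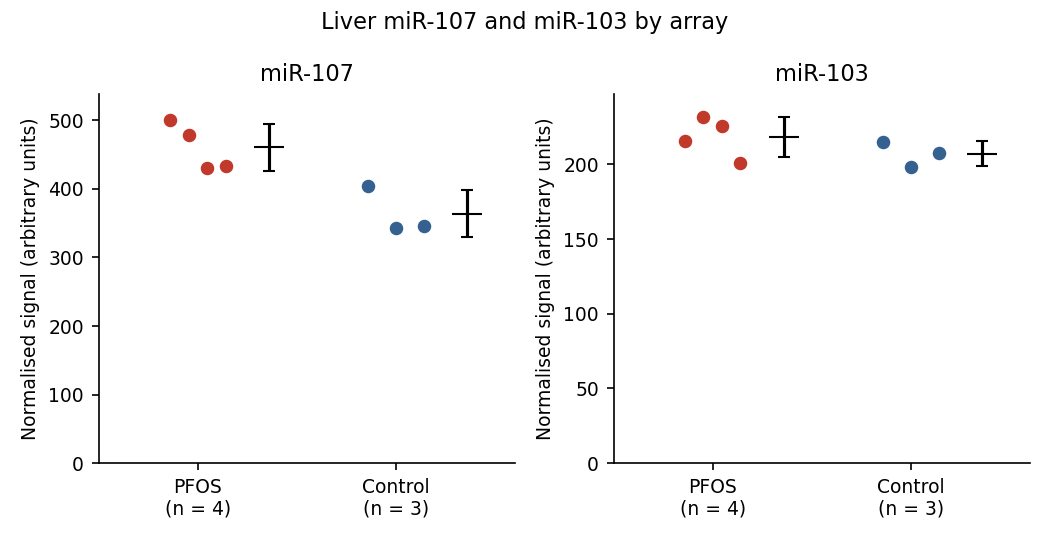
Normalised signal in arbitrary units of miR-107 (left panel) and miR-103 (right panel), with 1 point per array in replicate order, PFOS in red and Control in blue, and a black bar for the mean ± SD. The PFOS points of miR-107 lie between 430.3 and 500.0, above the Control points between 343 and 404, while the miR-103 points of both groups overlap.

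Over all tested miRNAs, limma called 0 of 175 (0%) at an adjusted p under 0.05 in either direction, and 34 at an unadjusted p under 0.05. Of those, 15 were higher in PFOS livers (8.57% of the tested miRNAs), with miR-107 among them, and 19 were lower (10.9%). The groups did not overlap, with PFOS higher, for 17 miRNAs (9.71%), of which miR-107 was 1 and miR-103 was not. Among increases miR-107 ranked 12 by fold change, and in absolute size 37 miRNAs exceeded it, 26 of them lower in PFOS livers. By smallest p it ranked 15. For log2 fold changes over all tested miRNAs the median was -0.02 and the median standard error was 0.14, so both paralogs were measured with a smaller error than the typical miRNA.

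**Figure D2:**
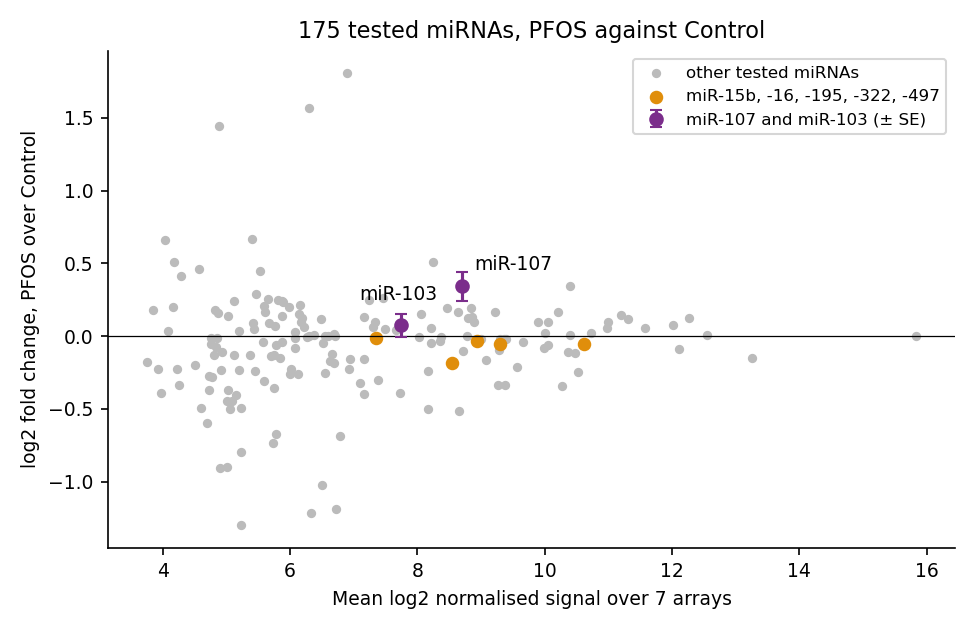
Log2 fold change of PFOS over Control against the mean log2 normalised signal over 7 arrays for the 175 tested miRNAs, 1 point each. The purple points are miR-107 (0.34) and miR-103 (0.08) with bars of 1 SE, and the orange points are the 5 tested miRNAs with AGCAGC near the 5′ end, which run from -0.19 to -0.01.

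The ratio of miR-107 to miR-103 within an array was examined next, because a factor that scales a whole array cancels in it. The ratio sets 1 probe set against another, so only its differences between arrays can be read, not its level. On the log2 scale the normalised ratio was 1.21, 1.05, 0.93 and 1.11 in PFOS replicates 1 to 4, and 0.91, 0.79 and 0.73 in Control replicates 1 to 3. Every PFOS value lay above every Control value, with PFOS replicate 3 and Control replicate 1 close together. The mean was 1.08 ± 0.12 in PFOS livers (SD, n = 4) and 0.81 ± 0.09 in Control livers (SD, n = 3). The difference was 0.27 (SE 0.08), or 1.20-fold, which missed the threshold of 0.05 (exact two-sided permutation over 35 splits, p = 0.0571, where 0.0286 is the smallest that the design allows).

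Before any scaling or loess the separation was also seen. The log2 ratio of the unscaled signals was 1.17, 1.07, 0.93 and 1.07 in PFOS replicates 1 to 4, and 0.91, 0.77 and 0.81 in Control replicates 1 to 3. The difference was 0.23 (SE 0.07), with the same exact permutation p of 0.0571. Both paralogs were brighter on PFOS arrays at this stage, by 1.03 on the log2 scale for miR-107 and 0.80 for miR-103, at a stage where the median signal was 1.74-fold higher on PFOS arrays. Within the PFOS group, replicate 3 had the brightest array and the lowest ratio, and replicate 1 the dimmest array and the highest ratio. In the Control group, replicate 1 had both the brightest array and the highest ratio. The error of the log2 ratio from the spread between spots of 1 array was 0.02 to 0.05, against an SD of the unscaled log2 ratio of 0.10 between PFOS arrays and 0.07 between Control arrays, which also holds the differences between rats.

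**Figure D3:**
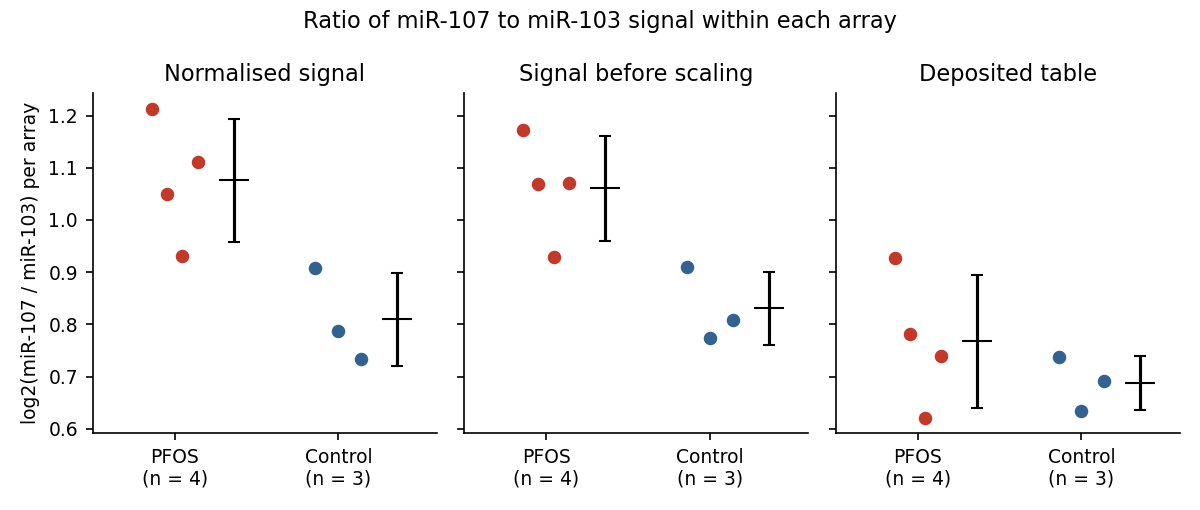
Log2 ratio of miR-107 to miR-103 signal within each array after normalisation (left), before scaling (middle) and in the deposited value table (right), with 1 point per array in replicate order, PFOS in red and Control in blue, and black bars for the mean ± SD. The groups do not overlap in the first 2 panels, with differences of 0.27 and 0.23, and overlap in the right panel, with a difference of 0.08; the vertical axis does not start at 0.

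Each paralog was read by 2 probes with 10 spots each, and the probes of a miRNA were compared as separate measurements. Probe A_26_P00001309 of miR-107 gave 175, 161, 147 and 140.7 in PFOS replicates 1 to 4, against 127, 114 and 104 in Control replicates 1 to 3. Its groups did not overlap, and its log2 fold change was 0.44 (SE 0.11, limma adjusted p = 0.106 over 380 probes). Probe A_26_P00001308 of miR-107 gave 328, 315, 282 and 293 in PFOS livers, against 283, 224 and 242 in Control livers. Here PFOS replicate 3 fell just below Control replicate 1, and the log2 fold change was 0.29 (SE 0.10, limma adjusted p = 0.195). Both probes of miR-107 were thus higher on average in PFOS livers, and neither passed.

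The probes of miR-103 showed smaller differences. Probe A_26_P00001304 gave 148, 153, 159 and 138 in PFOS livers, against 141.1, 135 and 135 in Control livers, and its log2 fold change was 0.12 (SE 0.06, limma adjusted p = 0.424). Probe A_26_P00001305 gave 70.8, 74.4, 70.5 and 65.9 in PFOS livers, against 75.4, 64.5 and 64.3 in Control livers, and its log2 fold change was 0.05 (SE 0.08, limma adjusted p = 0.970). The groups overlapped for both. Among all 380 probes of tested miRNAs, 0 (0%) passed at an adjusted p under 0.05, 38 (10%) were higher in PFOS livers at an unadjusted p under 0.05 and 36 (9.47%) were higher without overlap. Lower in PFOS livers were 31 (8.16%) at an unadjusted p under 0.05 and 23 (6.05%) without overlap. Both miR-107 probes were among the 38, and A_26_P00001309 was among the 36.

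With 2 probes on each side, the paralog ratio could be formed in 4 ways, and all 4 were higher on average in PFOS livers. The log2 differences were 0.39 for A_26_P00001309 over A_26_P00001305, 0.32 for A_26_P00001309 over A_26_P00001304 and 0.24 for A_26_P00001308 over A_26_P00001305, without overlap of the groups. For A_26_P00001308 over A_26_P00001304 the difference was 0.17 and the groups overlapped. The 4 ratios share probes and arrays and are not separate results. Between probes of 1 miRNA, the log2 ratio of A_26_P00001308 to A_26_P00001309 differed by -0.15 and that of A_26_P00001304 to A_26_P00001305 by 0.07, both with overlap.

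**Figure D4:**
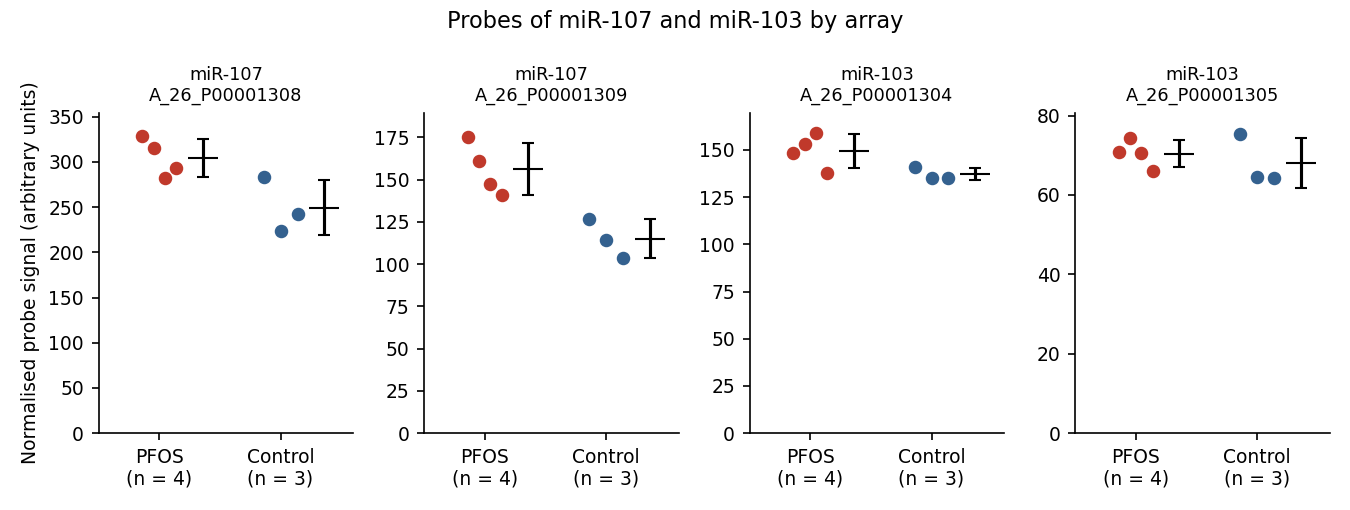
Normalised signal in arbitrary units of each of the 2 probes of miR-107 (left pair of panels) and of miR-103 (right pair of panels), with 1 point per array in replicate order, PFOS in red and Control in blue, and black bars for the mean ± SD. Only A_26_P00001309 of miR-107 separates the groups, at 140.7 to 175 in PFOS livers and 104 to 127 in Control livers.

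The arrays lay in 2 rows of 1 slide with 1 scan time, and both rows held both diets. In the first row, with 2 PFOS arrays and 1 Control array, the log2 difference was 0.28 for miR-107, 0.06 for miR-103 and 0.22 for their ratio. In the second row, with 2 arrays of each diet, it was 0.33 for miR-107, 0.07 for miR-103 and 0.26 for the ratio. The groups of miR-107 and of the ratio did not overlap over all arrays. Their signs within a row, and with them the order of the paralogs, were therefore fixed in advance. Only the sign of miR-103 could have differed between rows, and it was positive in both. With slide row as a block, miR-107 gave 0.31 (SE 0.06, limma adjusted p = 0.0858).

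The sign of the levels depended on how arrays were made comparable, whereas factors that scale a whole array cannot change the ratio. Scaled to the labelling spike-in, the log2 fold change was -0.10 for miR-107 and -0.33 for miR-103, while the median of all tested miRNAs was -0.43. Scaled to the 75th percentile of all miRNAs, it was 0.58 for miR-107 and 0.35 for miR-103, where the median of all was 0.25. Such scaling shifts all miRNAs alike, so the distance from that median is the same in both cases. The submitters' deposited value table is in log2 units per the labels, and its column medians of 5.48 to 5.51 show that it was not centred on 0. Across the 677 miRNAs of each array its values correlated at 0.9996 to 0.9999 (Pearson, across miRNAs) with log2 signals remade without background subtraction. Such a correlation is unchanged by a shift or a rescaling and mostly follows differences between miRNAs, so it does not settle the lowess settings. In that table the log2 values of miR-107 were 8.11, 8.06, 7.84 and 7.83 in PFOS replicates 1 to 4, against 7.94, 7.81 and 7.91 in Control replicates 1 to 3. The groups overlapped there, and the log2 fold change fitted in limma was 0.07 (SE 0.09, adjusted p = 0.745) for miR-107 and -0.01 (SE 0.05, adjusted p = 0.973) for miR-103. The ratio differed by 0.08 in that table, with overlap (exact two-sided permutation p = 0.400).

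**Figure D5:**
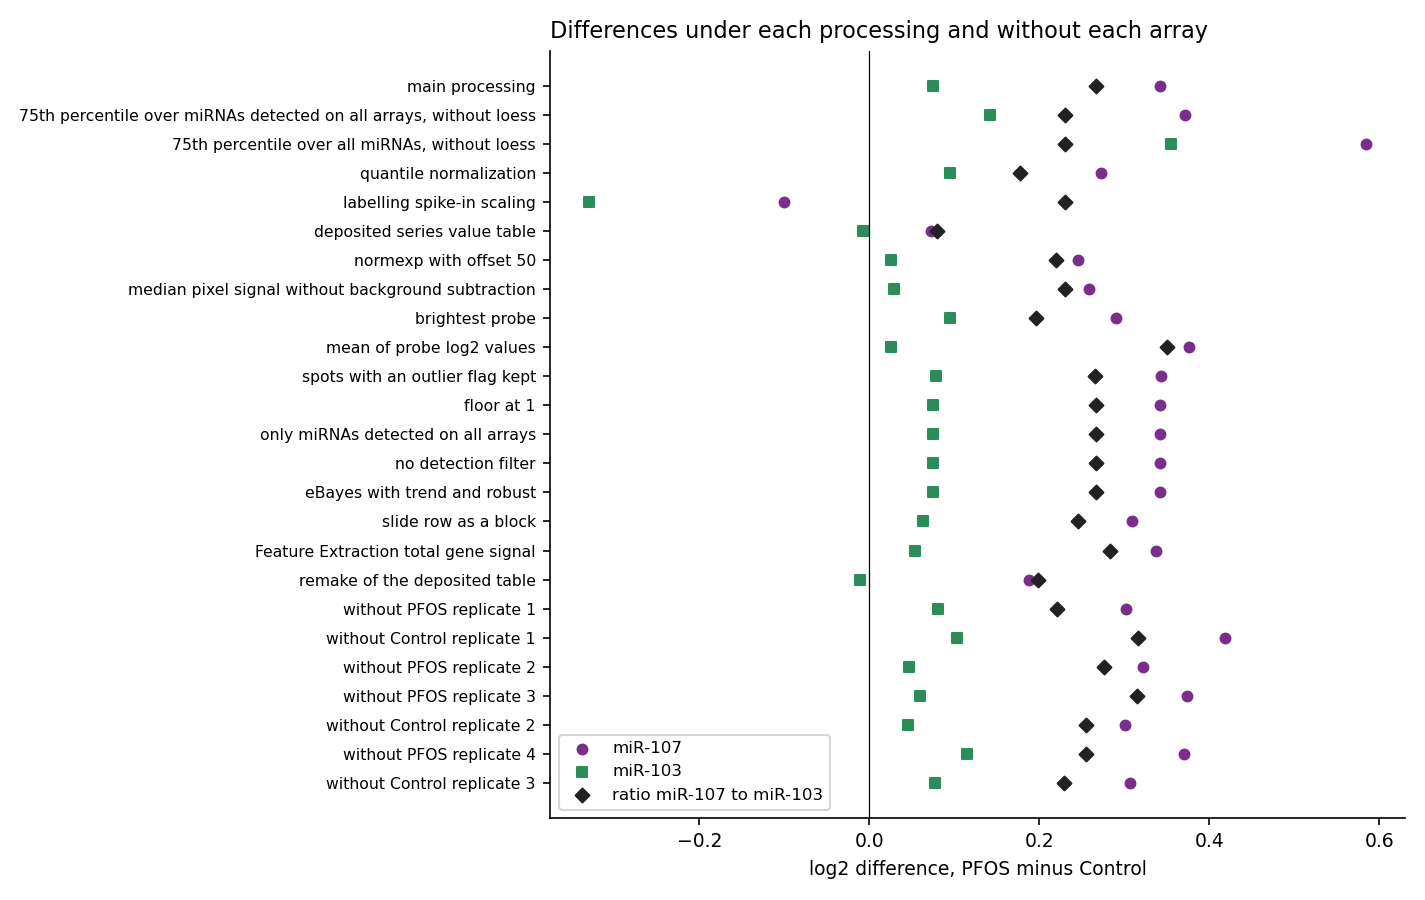
Log2 difference of PFOS minus Control for miR-107 (circles), miR-103 (squares) and their ratio (diamonds) under the main processing, 17 other settings and without each array in turn. The ratio cannot fall below 0 when an array is left out or slide row is a block, because its groups do not overlap in the main processing. Every diamond lies above 0, from 0.08 in the deposited table to 0.35 with the mean of probe log2 values, whereas the levels shift together with the scaling; cyclic loess with equal weights, where miR-103 came out at -3.04, is outside the plotted range and not drawn.

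The paralogs belong to a wider group of miRNAs that share AGCAGC near the 5′ end and are known to overlap in targets that control the cell cycle. AGCAGC starts at base 1 in miR-107 and miR-103 and at base 2 in the others, so that the seeds are offset by 1 base. It lay within bases 1 to 8 of 8 of the 694 mature miRNAs (1.15%), and the other 6 are shown with it in capitals.
rno-miR-15b-5p: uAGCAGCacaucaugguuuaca
rno-miR-16-5p: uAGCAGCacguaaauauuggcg
rno-miR-195-5p: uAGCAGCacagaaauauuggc
rno-miR-497-5p: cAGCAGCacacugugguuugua
rno-miR-322-5p: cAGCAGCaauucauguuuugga
rno-miR-503-5p: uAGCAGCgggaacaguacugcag
All 6 were on the array under the same names without the arm suffix. Detected on all 7 arrays and tested were 5 of them, and miR-503 was detected on none. The log2 fold changes of the 5 had a median of -0.05, against -0.02 for all tested miRNAs, and 0 passed, 0 had an unadjusted p under 0.05 in limma and 0 separated the groups. Over all tested miRNAs the share was 19.4% for each of the last 2 criteria, in either direction, and 0 of 5 is not read as different from it. The value was -0.19 (SE 0.13) for miR-15b, with means of 356 ± 41.6 in PFOS livers (SD, n = 4) and 404 ± 47.6 in Control livers (SD, n = 3). It was -0.05 (SE 0.12) for miR-16, a miRNA known to restrain cyclin expression, with means of 1552 ± 105 in PFOS livers (SD, n = 4) and 1619.6 ± 244 in Control livers (SD, n = 3). The values were -0.06 (SE 0.10) for miR-195, -0.04 (SE 0.10) for miR-497 and -0.01 (SE 0.18) for miR-322. These 5 signs turned positive for 3 members when arrays were only scaled to the 75th percentile of the miRNAs detected throughout (median 0.00, against 0.04 for all tested miRNAs), for 5 when that percentile was taken over all miRNAs (median 0.21, against 0.25), and for 1 each under quantile normalization, normexp and the unsubtracted median signal. The difference between miR-107 and these miRNAs was not tested.

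A list of 17 miRNAs linked to glucose and lipid handling in liver was set beside the paralogs. Of these 17, 13 were tested, 8 with a positive and 5 with a negative log2 fold change, and 0 passed in limma. Their median was 0.00, against -0.02 for all tested miRNAs, and their range -0.69 to 0.45. At an unadjusted p under 0.05 there were 3 (23.1%, against 19.4% of all tested miRNAs), namely miR-29c at 0.35 (SE 0.08), whose family represses collagen transcripts, miR-27b at -0.34 (SE 0.10), a miRNA known to target lipid genes, and miR-34a at -0.69 (SE 0.25), which is induced by p53. The value was 0.17 (SE 0.16) for miR-33, which represses the cholesterol exporter Abca1, and 0.00 (SE 0.06) for the hepatocyte miRNA miR-122. The fold change of miR-107 was thus within the range of this list, and its size was close to that of miR-29c.

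The paralogs were not each other's nearest neighbours on the array. Likeness was taken as the root mean square difference of the mean-centred log2 signals over the 7 arrays, where a smaller value means a more similar profile. Between miR-107 and miR-103 it was 0.16, which placed miR-103 at rank 25 of the profiles nearest to miR-107, and miR-107 at rank 59 of those nearest to miR-103. The 5 profiles nearest to miR-107 were miR-148b-3p (0.09), miR-29c (0.09), miR-352 (0.11), miR-29b (0.11) and miR-17-5p (0.11). Their log2 fold changes, whose sign follows from being chosen for likeness to miR-107, were 0.20, 0.35, 0.22, 0.17 and 0.24. The 5 nearest to miR-103 were let-7d (0.05), miR-29b (0.06), miR-30b-5p (0.06), miR-26a (0.07) and miR-30e (0.07), whose SDs over the 7 arrays were 0.05 to 0.11. The SD over the 7 arrays was 0.21 for miR-107 and 0.08 for miR-103. Profiles were not scaled to equal SD, so the distance and the ranks hold this difference in size as well as any in shape. All profiles share the same 7 arrays and normalisation, so these distances are a description.

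Markers of liver cell types were read for context, since both paralogs are expressed in many cell types. The hepatocyte list (miR-122, miR-192 and miR-194) was detected in full, with a summed signal of 63020.3 to 65879.6 in PFOS livers and 64173 to 65266 in Control livers. Most of this sum was miR-122, with log2 fold changes of -0.09 for miR-192 (SE 0.07) and of -0.12 for miR-194 (SE 0.08). The median log2 fold change of this list depended on the processing. It was -0.09 in the main processing and -0.44 in the deposited table, against -0.02 for all tested miRNAs in both. Under quantile normalization it was -0.10, against 0.02, and under spike-in scaling -0.48, against -0.43. The cause was not tested. Of the biliary epithelium list, 3 of 5 were tested (miR-200a, miR-200b and miR-429), each higher in PFOS livers without overlap, as were 9.71% of all tested miRNAs, and miR-200c and miR-141 were detected on no array. Of the tested members, miR-429 was detected on 4 PFOS and 0 Control arrays, with Control signals of 11.7 to 24.6 against the floor of 12.1. It was tested only through its PFOS arrays, which favours a higher PFOS value, so its direction is not separate support. The summed signal of this list, which counts the undetected members near the floor, was 323 to 560 in PFOS livers and 87.8 to 212 in Control livers, which moved in the same direction as miR-107. The part of these cells in the miR-107 difference was not tested. The summed signals of the other lists overlapped between the diets, at 438 to 1079 and 518 to 930 for the erythroid list (PFOS and Control livers), 1068 to 1380 and 1178 to 1303 for the leukocyte list, 1714 to 1854 and 1571 to 1936 for the endothelial list, and 708 to 997 and 775 to 960 for the stellate and smooth muscle list. Within these lists, members at an unadjusted p under 0.05 in limma were miR-145 of the stellate list, at -0.23 (SE 0.09) without overlap, and miR-223 of the leukocyte list, at -0.23 (SE 0.09) with overlap. The signal of miR-145 was near the floor of 12.1, at 13.6 to 15.1 in PFOS livers and 15.3 to 18.2 in Control livers. It was detected on 3 PFOS arrays and 0 Control arrays, so its difference is not read as a change.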

How the data were processed

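Per the file headers, Feature Extraction 10.7.3.1 produced each spot's intensity, subtracted its background and detrended it. The deposited series table is in log2 units after cyclic lowess in R, per the labels, with settings not given in the sources. Nothing was pooled, and p-values rest on 1 rat per array.

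Spots without an outlier flag were averaged per probe over 13540 spots and 1644 probes, and probes summed per miRNA. Arrays were scaled to the 75th percentile over miRNAs detected on all arrays, floored at the 1st percentile of detected values (12.1), log2-transformed and normalised by cyclic loess (limma 3.58.1, R 4.3.3, span 0.7, 3 iterations, weight only on miRNAs detected on all arrays). Tested miRNAs were detected on all 3 Control or at least 3 PFOS arrays. Groups were compared with lmFit and eBayes, 6.51 degrees of freedom and Benjamini-Hochberg adjustment. The fit was tested on simulated data. For a lone array, 18 measures were screened in the PFOS group only, by the gap to the nearest value over the range (Dixon). The critical value for 4 arrays is 0.829, and 0 measures passed it. Just under it were miR-497 (0.824) and the median unscaled signal (0.823, PFOS replicate 3). With 4 values the screen can flag only an extreme array. The sum of probes and the probe fit were normalised separately. Named miRNAs were the members, the AGCAGC group and the 5 nearest profiles of each paralog. Examples of the glucose and lipid list and single cell type markers were named after their values were seen. The members, lists and alternatives were chosen with earlier results of these data known. The number of arrays limits the precision. Alternatives changed the normalization, background, probe summary, filters, floor, moderation and slide row, and left out each array. Plots were drawn with matplotlib 3.10.9.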

Additional observations from a re-analysis of the deposited data

How the results depend on the processing

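The ratio of miR-107 to miR-103 was positive under all 25 alternatives. Of these, 3 (filters and moderation) cannot touch it and 3 (scaling of whole arrays) give 0.23 by construction. Its groups did not overlap in the main processing, so leaving out an array or blocking by slide row could not make it negative. It passed an exact two-sided permutation test (p = 0.0286) under 3, with normexp (0.22), with the unsubtracted median signal (0.23) and with the mean of probe log2 values (0.35), and had a larger exact permutation p with the brightest probe (0.20, p = 0.114), quantile normalization (0.18, p = 0.229), equal-weight loess (p = 0.2) and the deposited table (0.08, p = 0.400). Without each array it ran from 0.22 to 0.32, where the smallest exact permutation p is 0.1 for 3 against 3 arrays and 0.0667 for 4 against 2. The miR-107 groups also did not overlap in the main processing. Leaving out an array or blocking by slide row therefore could not turn its log2 fold change negative. Of the 25 alternatives, the same 3 (filters and moderation) cannot change the log2 fold change of miR-107 either. It was positive under 24 of 25 alternatives, did not pass in limma under any of them, and turned negative under spike-in scaling (-0.10). Without each array it was 0.30 to 0.42. It was smallest among the positive values in the deposited table (0.07), and 0.19 in a remake of that table added after seeing the data; the cause was not tested. That of miR-103 was negative under spike-in scaling (-0.33), in the deposited table (-0.0074), in its remake (-0.011) and under cyclic loess with equal weights (-3.04), and 0.05 to 0.11 without each array. Under equal weights the signals of miR-103 ran from 3.56 to 1024 on PFOS and from 267 to 1376 on Control arrays, against 201 to 231 and 198.5 to 215 in the main processing, and the ratio came to 3.35. The probe values kept their sign under quantile normalization and without each array. For A_26_P00001309, whose groups did not overlap, leaving out an array could not have changed the sign. Under quantile normalization the miR-107 probes gave 0.36 (A_26_P00001309) and 0.29 (A_26_P00001308). The miR-103 probes gave 0.03 (A_26_P00001304) and 0.21 (A_26_P00001305, against 0.05 in the main processing), so the gap between the paralogs depended on the probe and the normalization. The 0 miRNAs past the threshold became 22 with normexp (6 higher and 16 lower in PFOS), 20 with the unsubtracted median signal (5 and 15), 9 in the deposited table (0 and 9), 8 under spike-in scaling (0 and 8), 4 with slide row as a block (3 and 1), 3 when scaled to the 75th percentile of all miRNAs (3 and 0), 1 without a detection filter (0 and 1) and 1 with Feature Extraction's total gene signal, chosen after seeing the data (1 and 0), and stayed 0 without each array. No paired analysis was possible because the labels give no replicate numbers shared between the groups. The star arms were detected on no array and have no value under any alternative.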
